A study of Mus musculus with 2 samples.

Results

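The 9 genes described here make, store, sense and break down retinoic acid: Aldh1a1, Aldh1a2, Aldh1a3, Cyp26a1, Cyp26c1, Crabp1, Crabp2, Rarb and Dhrs3. They were chosen by gene symbol from the 31053 genes of the deposited feature tables, and all 9 were present. Mouse eye cups at e15.5 were dissociated after the cornea, lens and optic nerve had been taken off, and 1 library of single-cell 3′ transcripts was made for each of 2 genotypes. The control was Myrf fl/fl, with both copies of Myrf flanked by loxP sites. Mutant embryos were Rx>cre Myrf fl/fl and carried the same floxed copies together with a Cre transgene driven from the early eye field by Rx. Each library was a pool of 3 eye cups, so the spread between embryos was not measured, and a difference between the libraries has no replicate check. No test was made between genotypes, and every interval given is an exact 95% interval for counting error alone.

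Retinoic acid is a small lipid signal derived from vitamin A. Retinaldehyde dehydrogenases of the Aldh1a family carry out the last, irreversible step of its synthesis, enzymes of the Cyp26 family oxidise it to inactive products, and the cellular binding proteins Crabp1 and Crabp2 hold it inside cells. It acts by binding nuclear receptors that sit on DNA beside genes such as Rarb and Cyp26a1, which are therefore both parts of the pathway and targets of it. In the embryonic eye, Aldh1a1 is known for the dorsal retina, Aldh1a3 for the ventral retina and the pigmented layer, and a Cyp26 stripe for the zone between them, while the mesenchyme around the eye is the best known responder.

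The genes lie on 6 chromosomes in GRCm38 (GENCODE vM21 coordinates), and all 9 are annotated as protein coding. The dehydrogenases are on chromosome 19 from 20492715 to 20643465 (Aldh1a1), chromosome 9 from 71215789 to 71296243 (Aldh1a2) and chromosome 7 from 66390890 to 66427517 (Aldh1a3). Cyp26c1 (chromosome 19, 37685581 to 37693398) and Cyp26a1 (chromosome 19, 37697798 to 37701536) are neighbours with 4399 bases between them. Crabp1 is on chromosome 9 from 54764748 to 54773110 and Crabp2 on chromosome 3 from 87948666 to 87953376. Rarb occupies chromosome 14 from 16430839 to 16819156, and Dhrs3 chromosome 4 from 144892827 to 144928209.

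Promoter sequence was examined for the element that retinoic acid receptors are best known to bind, a direct repeat of 2 hexamers with 5 bases between them (DR5). RefSeq windows of 300 bases around the transcription start (GRCm38.p6) were at hand for 7 of the 9 genes, 10 windows in all, and a DR5 on either strand was found for 2 of them, Rarb and Cyp26a1. Over all 32851 such windows the same search found a DR5 in 32, or 0.0974%. The 120 bases before the start of those 2 genes are shown on the strand of the gene, because a receptor gene and a breakdown gene of the pathway each hold a match to its best known element, with the DR5 in capitals. The Rarb stretch is chr14:16575477-16575596 on the minus strand, and its DR5 lies from base 53 to base 37 before the start, which is a start inside the longer GENCODE span of the gene. The Cyp26a1 stretch is chr19:37697688-37697807 on the plus strand, and its DR5, read on the opposite strand, lies from base 32 to base 16 before the start. This RefSeq start is also inside the GENCODE span of the gene, which begins at 37697798, within the stretch and after the DR5.
Rarb: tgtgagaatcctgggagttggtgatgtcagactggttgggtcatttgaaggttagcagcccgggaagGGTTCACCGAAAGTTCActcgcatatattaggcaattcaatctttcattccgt
Cyp26a1: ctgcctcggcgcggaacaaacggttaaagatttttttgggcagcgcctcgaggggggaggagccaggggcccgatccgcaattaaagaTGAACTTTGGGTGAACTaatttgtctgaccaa
No DR1 or DR2, the repeats with 1 or 2 bases between the hexamers, was found in the members' windows, and these occurred in 0.222% and 0.268% of all windows. A match describes letters and is neither a shown binding site nor a cause, and a window without one says only that these letters are not in it.

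The control library held 13017 barcodes and 132436812 UMIs (unique molecular identifiers, 1 for each transcript captured), and the mutant library 13880 barcodes and 135678970 UMIs, with medians of 9339 and 8702 UMIs per barcode. After filtering, 11608 and 12669 cells were kept and clustered together without the 9 genes, and clusters were named "-like" from marker genes, which gave 13 named classes of at least 50 cells in each library and 4 clusters referred to by number. Orders of levels are over these 17 classes, and 2 smaller named classes, melanocyte-like (55 and 30 cells) and Schwann cell-like cells (38 in each), are given where they reach such levels. All 7 progenitor markers were seen in at least 10% of retinal progenitor-like cells, and 6 of 8 RPE markers in at least 10% of RPE-like cells, in both libraries. The targeted gene, Myrf, was at 77.2 CPM (UMIs per 1000000 UMIs of the class; 68.6 to 86.5, 293 UMIs) in control RPE-like cells and at 30.1 CPM (22.8 to 38.9, 57 UMIs) in mutant RPE-like cells, a ratio of 0.389 (0.288 to 0.519). Tags at the 3′ end need not come from the deleted part of Myrf, so the remaining UMIs do not measure an intact gene. The libraries shared 69 barcodes. Y-linked genes had a UMI in 3 control cells (0.0258%) and 5302 mutant cells (41.9%), so the pools also differed in the sex of their embryos. UMIs of 7 progenitor markers, Fgf15 and Sfrp2 among them, in erythroid-like cells, which should lack them, summed to 23.4 CPM in control and 43.9 CPM in mutant cells.

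Among the enzymes of synthesis, Aldh1a1 and Aldh1a3 were retinal and Aldh1a2 was not. Retinal progenitor-like cells (2350 control and 3492 mutant cells) held 66.9% of the Aldh1a1 UMIs of all kept control cells and 68.4% of those of the mutant. Aldh1a1 there was at 93.7 CPM (90.0 to 97.5) in the control and 78.6 CPM (75.8 to 81.6) in the mutant, and a UMI was seen in 21.3% and 22.4% of cells. The only higher class was cluster 13, a group of 57 cells in each library led by Cartpt, Pax2 and Wnt8b, with 453 CPM (400 to 510) in the control and 214 CPM (181 to 252) in the mutant. That level came from few cells, since 5 of the 57 cells held 80.5% of its UMIs among control cells and 66.4% among mutant cells. Below these, Aldh1a1 was at 34.5 CPM in control photoreceptor precursor-like and 26.7 CPM in control neurogenic progenitor-like cells, whose intervals overlapped. Cells in no class were left out of this order. Among them cluster 17 (669 control and 616 mutant cells, with a median of 1182 UMIs) had Aldh1a1 among its leading genes.

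Aldh1a2 was found outside the neuroepithelium. Of the 17 classes it was highest in cluster 3 (440 and 452 cells, led by Nts, Tbx18 and Cxcl12). The level there was 116 CPM (107 to 125) in the control and 154 CPM (144 to 165) in the mutant. Pericyte-like cells followed with 92.8 CPM (86.6 to 99.4) and 95.2 CPM (87.9 to 103), and mesenchyme-like cells with 15.1 CPM (13.7 to 16.5) and 15.9 CPM (14.2 to 17.7). None of these 3 classes overlapped the next in either library, apart from mesenchyme-like and endothelial-like cells in the mutant. Pericyte-like, cluster 3 and mesenchyme-like cells accounted for 40.2%, 29.7% and 21.8% of the control UMIs of the gene, and retinal progenitor-like cells for 0.582%. Cluster 1, which is in no class (555 control and 606 mutant cells, with a median of 902 UMIs), had Aldh1a2 among its leading genes. It was left out of the order.

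Aldh1a3 had the highest UMI count of the 3 dehydrogenases, with 6149 UMIs in kept control cells against 3648 for Aldh1a1 and 2062 for Aldh1a2, counted per transcript end and so not scaled by gene length. In retinal progenitor-like cells it was at 158 CPM (153 to 163) in the control and 158 CPM (154 to 162) in the mutant, a ratio of 1.00 (0.963 to 1.04), and it was the member whose main class differed least between the libraries. Cluster 13 stood at 105 CPM (80.5 to 134) and 155 CPM (127 to 188), and surface epithelium-like cells at 104 CPM (88.0 to 122) and 117 CPM (102 to 133), with overlapping intervals within each library. RPE-like cells came next, at 29.0 CPM (23.8 to 34.9) in control and 46.9 CPM (37.7 to 57.8) in mutant cells. In the control they overlapped cluster 3 (26.3 CPM, 22.1 to 31.0), pericyte-like and photoreceptor precursor-like cells. The mutant RPE-like level came mostly from few cells, as given below. In the 38 Schwann cell-like cells of each library, a class under the size limit, Aldh1a3 reached 134 CPM (106 to 166) and 105 CPM (81.8 to 134), with a UMI in 78.9% and 71.1% of cells.

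The breakdown enzyme Cyp26a1 was also mainly retinal, and its paralogue Cyp26c1 was hardly seen. Cyp26a1 was at 83.0 CPM (79.6 to 86.6) in control and 76.9 CPM (74.1 to 79.8) in mutant retinal progenitor-like cells, which held 72.4% and 75.0% of its UMIs. Pericyte-like cells were the next class, at 32.0 CPM (28.4 to 36.0) and 46.0 CPM (41.0 to 51.5), above every class below them in the mutant but overlapping cluster 13 in the control. Cyp26c1 had 8 UMIs in all kept control cells and 11 in all kept mutant cells, 6 and 9 of them in retinal progenitor-like cells. At this depth no level of Cyp26c1 could be compared between classes or genotypes.

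The binding proteins were the most abundant members by UMIs. Crabp1, which is thought to restrain retinoic acid in the cytoplasm, was highest in retinal ganglion cell-like cells, at 591 CPM (573 to 610) in the control and 449 CPM (435 to 463) in the mutant. Mesenchyme-like cells came second at 279 CPM (273 to 285) and 305 CPM (298 to 313), and retinal progenitor-like cells next at 141 CPM (137 to 146) and 115 CPM (112 to 119). These 3 classes kept this order in both libraries with no overlap between them. Crabp1 was uneven within classes. Of the 2 ganglion clusters, cluster 26 was at 968 and 935 CPM, while cluster 18 was at 340 CPM in control and 177 CPM in mutant cells, where 5 cells held 60.5% and 47.4% of the UMIs. Of the 4 mesenchyme-like clusters, cluster 4, led by A2m, Matn4 and Kera, was at 693 and 660 CPM, and cluster 15, led by Mfap5, Tnxb and Osr2, at 63.4 and 68.0 CPM.

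Crabp2, which is known to pass retinoic acid to the receptors in the nucleus, was the most widespread member and the only one with at least 50 UMIs over both libraries in every one of the 17 classes. Retinal progenitor-like cells had 438 CPM (430 to 446) in the control and 407 CPM (400 to 413) in the mutant, with a UMI in 91.2% and 90.1% of cells. Mesenchyme-like cells had 252 CPM (246 to 257) and 236 CPM (229 to 242). In the control their interval overlapped that of surface epithelium-like cells, which had 232 CPM (208 to 258), whereas in the mutant the surface epithelium-like level was 122 CPM (107 to 139). Within the mesenchyme Crabp2 was much more even than Crabp1, between 223 and 294 CPM over the 4 clusters of the control. Its lowest class was the erythroid-like cells, at 5.51 and 4.82 CPM.

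Rarb, a nuclear receptor whose own gene responds to retinoic acid, was highest in the same 3 of the 17 classes as Aldh1a2. Pericyte-like cells had 170 CPM (161 to 178) in the control and 142 CPM (133 to 151) in the mutant, cluster 3 had 134 CPM (124 to 144) and 103 CPM (94.2 to 112), and mesenchyme-like cells had 40.0 CPM (37.8 to 42.4) and 30.3 CPM (28.0 to 32.7). The order of these 3 classes was the same in both libraries, without overlap. The small melanocyte-like class was above mesenchyme-like cells, at 59.8 CPM (44.1 to 79.3) and 54.0 CPM (34.2 to 81.0), and had little Aldh1a2, with 4 and 0 UMIs. Retinal progenitor-like cells, the main site of Aldh1a1, Aldh1a3 and Cyp26a1, had 8.67 CPM of Rarb in control and 9.83 CPM in mutant cells. Inside the mesenchyme, Rarb was at 71.7 CPM in cluster 8, led by Tnn and Tagln, and at 2.15 CPM in cluster 4 of the control, the reverse of the order of Crabp1 in those clusters, which was 223 and 693 CPM.

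Dhrs3, a reductase that turns retinaldehyde back into retinol and is known to rise with retinoic acid, had its highest levels among the 17 classes in immune-like, surface epithelium-like and pericyte-like cells. Immune-like cells were at 113 CPM (99.1 to 129) in the control and 89.4 CPM (78.6 to 101) in the mutant, surface epithelium-like cells at 109 CPM (93 to 128) and 77.2 CPM (65.2 to 90.8), and pericyte-like cells at 92.8 CPM (86.6 to 99.4) and 104 CPM (96.5 to 112). In the control, neighbours in this order overlapped. In the mutant the pericyte-like level was the highest of the 17 and overlapped that of immune-like cells but not that of surface epithelium-like cells. Pericyte-like cells held 32.6% and 32.4% of all Dhrs3 UMIs. The small melanocyte-like class reached these levels, at 113 CPM (91.3 to 139) from 91 UMIs and 136 CPM (103 to 176) from 58 UMIs. Endothelial-like cells had 56.9 and 46.7 CPM, RPE-like cells 36.6 and 33.2 CPM, and retinal progenitor-like cells 1.57 and 2.79 CPM.

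**Figure D1:**
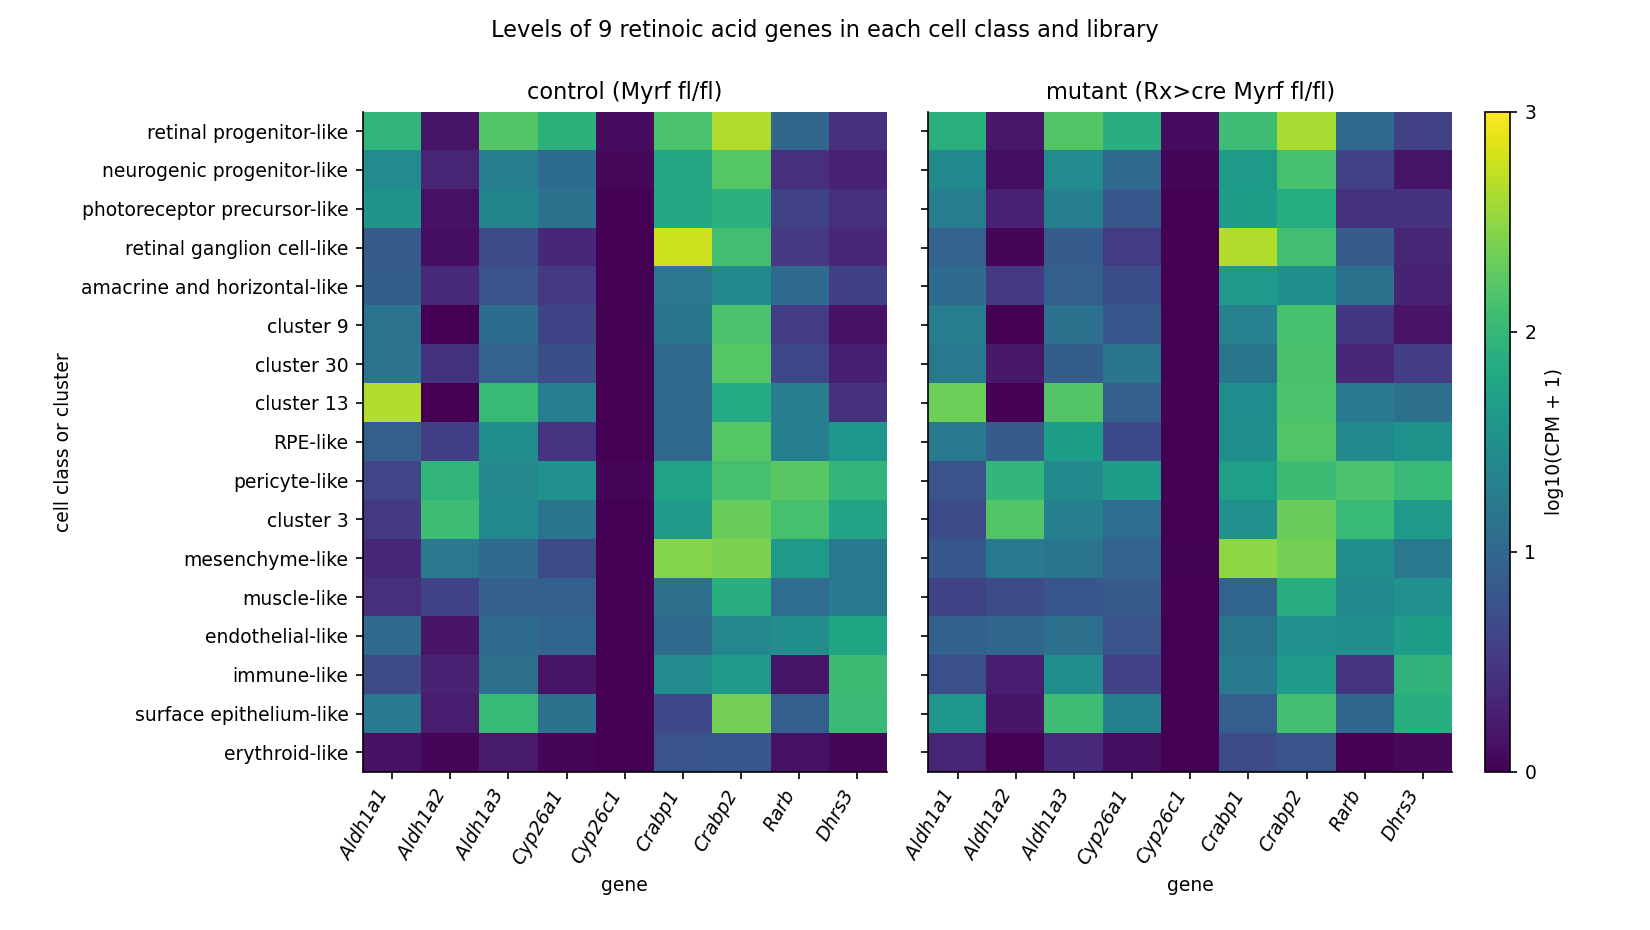
Levels of the 9 genes (columns) in each of the 17 classes (rows), for the control (left) and the mutant (right) library, coloured by log10(CPM + 1), where CPM is UMIs per 1000000 UMIs of the class. Aldh1a1, Aldh1a3 and Cyp26a1 are brightest in retinal progenitor-like cells (93.7, 158 and 83.0 CPM in the control, apart from Aldh1a1 in cluster 13), whereas Aldh1a2 and Rarb are brightest in pericyte-like cells and cluster 3.

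The profiles over classes also paired the members. Over 13 named classes, Pearson correlations of log2(CPM + 1) were 0.793 in the control and 0.873 in the mutant between Aldh1a2 and Rarb, 0.738 and 0.839 between Aldh1a1 and Aldh1a3, 0.771 and 0.752 between Aldh1a3 and Cyp26a1, and 0.778 and 0.716 between Aldh1a3 and Crabp2. Aldh1a1 and Aldh1a2 were at -0.38 and -0.26. These describe 13 classes that share a library and its free RNA. Of all genes with at least 200 UMIs in the control, those most like Aldh1a1 were Map7, Dapl1 and Gldc (0.911 to 0.936 in the control), those most like Aldh1a3 were Sox9, Col4a6 and Gcat (0.907 to 0.922), and those most like Cyp26a1 were Cox4i2, Ndufa4l2 and Fam19a1 (0.874 to 0.890). Aldh1a2 was most like Actg2, Carmn and Htr1f (0.958 to 0.967), and Rarb most like Plat, Pdlim3 and Kirrel (0.894 to 0.905). Crabp1 went with Slitrk5, Hs3st5 and C230004F18Rik (0.861 to 0.881), Crabp2 with Gm2415, Mei4 and Zfp280b (0.921 to 0.940), and Dhrs3 with H2-T22 and Ahnak (0.955 and 0.932). Over all genes picked in this way, the same correlations in the mutant were between 0.746 for C230004F18Rik with Crabp1 and 0.968 for H2-T22 with Dhrs3.

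Retinal progenitor-like cells formed 4 clusters, led by Ung and Cdc6 (cluster 16), by histone genes such as Hist1h1a (cluster 22), by Cenpf and Plk1 (cluster 5) and by Ccnb2 and Cdc20 (cluster 21), genes known for successive stages of the cell cycle. Cyp26a1 was highest in cluster 16, at 114 CPM in control and 96.0 CPM in mutant cells, and lowest in cluster 21, at 56.4 and 52.4 CPM. Aldh1a3 had its highest level in cluster 22, at 194 and 185 CPM. Its lowest control level, 120 CPM, was in cluster 16, whereas in the mutant clusters 16 and 21 were close, at 138 and 135 CPM. Crabp1 was higher in clusters 16 and 22 (166 and 174 CPM in the control) than in clusters 5 and 21 (105 and 93.3 CPM), and the mutant had the same split (124 and 137 CPM against 97.8 and 82.8 CPM). Crabp2 varied less, between 388 and 504 CPM in the control. Aldh1a1 had no such shared pattern, because cluster 21 was its highest in the control, at 119 CPM, and was at 69.4 CPM in the mutant.

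**Figure D2:**
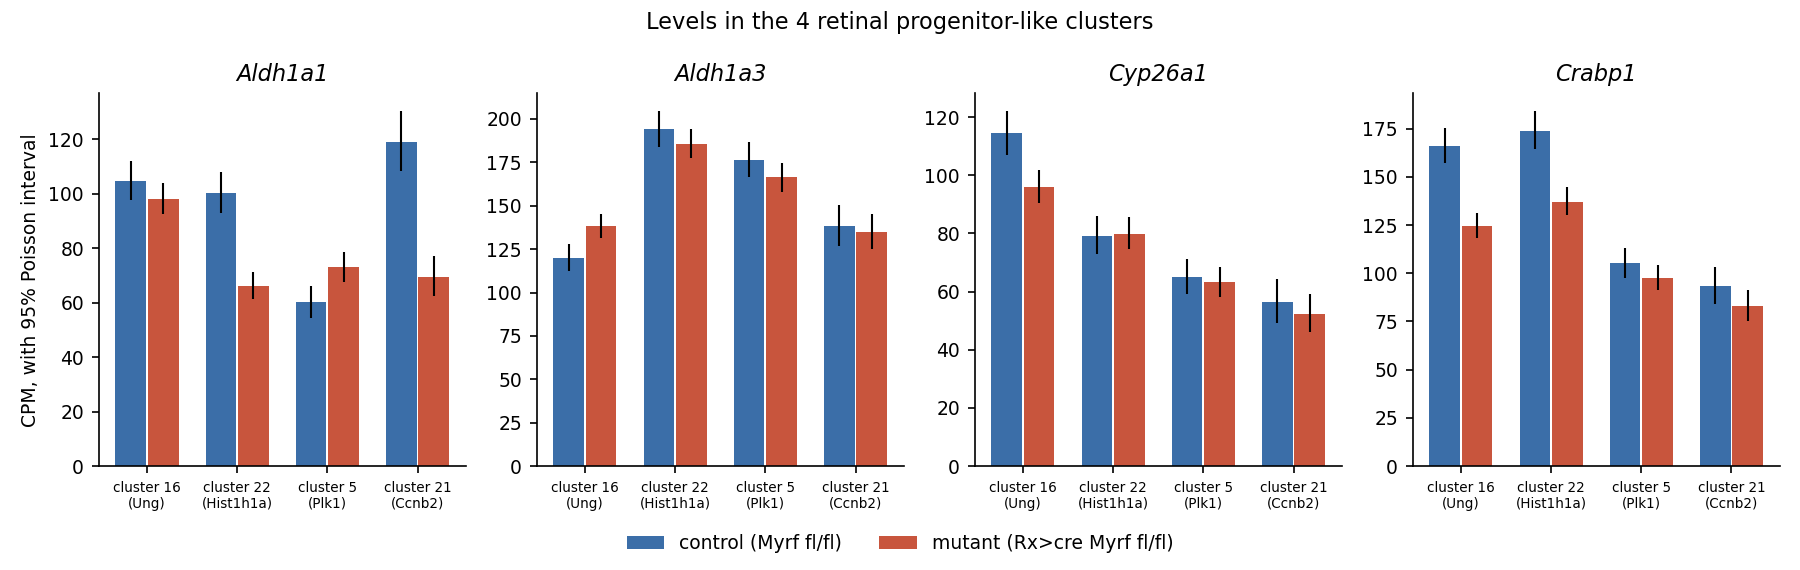
Bars give CPM of Aldh1a1, Aldh1a3, Cyp26a1 and Crabp1 (1 panel each) in clusters 16, 22, 5 and 21 of the control (blue) and mutant (red) library, with a leading gene under each cluster and lines for exact 95% counting intervals. Cyp26a1 is highest in cluster 16 in both libraries (114 and 96.0 CPM), and Aldh1a3 is highest in cluster 22 (194 and 185 CPM).

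The dorsal and ventral dehydrogenases were found in the same progenitor cell less often than their separate shares give. After each cell had been thinned to 2000 UMIs, 28 of 2305 control retinal progenitor-like cells had a UMI of both Aldh1a1 and Aldh1a3, where the product of their shares gives 45.8 cells, a ratio of 0.612 (0.407 to 0.882). In the mutant 43 of 3403 cells had both, where the product gives 72.5 cells, a ratio of 0.593 (0.430 to 0.797). Both intervals lay below 1. Cyp26a1 was also found less often with Aldh1a3, with a ratio of 0.224 (0.122 to 0.374) in the control and 0.472 (0.347 to 0.626) in the mutant. For Aldh1a1 with Cyp26a1 the ratio depended on the thinning, at 0.512 (0.287 to 0.843) and 0.71 (0.476 to 1.02) with it and 0.995 (0.847 to 1.16) and 1.03 (0.909 to 1.16) without it. The binding proteins showed no such separation, since Crabp1 with Crabp2 gave 1.04 (0.933 to 1.16) and 1.07 (0.971 to 1.19), and Aldh1a3 with Crabp2 gave 0.987 (0.876 to 1.11) and 0.978 (0.890 to 1.07). Without thinning, Aldh1a1 with Aldh1a3 gave 0.689 (0.590 to 0.798) in the control and 0.765 (0.684 to 0.853) in the mutant, and Aldh1a3 with Cyp26a1 gave 0.505 (0.435 to 0.583) and 0.576 (0.515 to 0.642). At that depth 164 of the 500 control cells and 296 of the 782 mutant cells with Aldh1a1 also had Aldh1a3. Doublets that were not called could add to the cells with both, and their number was not measured.

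Shares of cells with a UMI were read against erythroid-like cells, which serve as a guide to the level of free RNA. At 2000 UMIs per cell, retinal progenitor-like cells with an Aldh1a1 UMI made up 9.67% in the control and 8.55% in the mutant, those with Aldh1a3 21% and 21.3%, and those with Cyp26a1 13.1% and 12.9%. Crabp1 was seen in 22.4% and 19.9% and Crabp2 in 53.9% and 52.1% of the same cells. In erythroid-like cells thinned alike (458 control and 400 mutant cells), the shares of these 5 genes were between 0.218% and 0.873% for control and between 0.25% and 0.75% for mutant cells. Thinning draws UMIs at random, and the shares differ somewhat between draws. The draw used for co-detection gave 9.63% and 9.35% of retinal progenitor-like cells for Aldh1a1, and 20.6% and 22.8% for Aldh1a3. Small gaps between the libraries in these shares are therefore not read. Before thinning, erythroid-like cells had medians of 16815.5 and 16685.5 UMIs and retinal progenitor-like cells had 10244.5 and 9510. Free RNA can make up a larger part of the UMIs of a shallower cell. The erythroid-like shares may therefore understate the background of shallower classes. The shares of Aldh1a2 in retinal progenitor-like cells, 0.130% and 0.118%, were not above the 0.655% and 0.75% that a count of 0 allows in erythroid-like cells, and are read as background.

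Genes known to mark the dorsal and ventral retina, which were also kept out of the clustering, sorted with the enzymes. Among retinal progenitor-like cells of the control, 336 had Aldh1a1 without Aldh1a3, 955 had Aldh1a3 without Aldh1a1, 164 had both and 895 neither, and the mutant had 486, 1431, 296 and 1279. Tbx5, a dorsal transcription factor, was at 23.7 CPM (19.1 to 29.1) in the Aldh1a1 cells of the control and at 0.260 CPM (0.0537 to 0.761) in its Aldh1a3 cells, from 93 and 3 UMIs. The mutant had 20.3 CPM (16.6 to 24.6) and 0.126 CPM (0.0152 to 0.454). Vax2, a ventral transcription factor, was the mirror image, at 6.12 CPM (3.92 to 9.11) against 149 CPM (142 to 156) in the control and 6.51 CPM (4.51 to 9.10) against 137 CPM (131 to 143) in the mutant. No interval of these 2 genes overlapped between the enzymes.

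The remaining dorsal and ventral genes lay between these extremes. The dorsal factor Tbx3 was 4.12-fold higher (3.50 to 4.85) with Aldh1a1 than with Aldh1a3 in the control and 3.94-fold (3.42 to 4.56) in the mutant, Tbx2 2.51-fold and 2.30-fold, and the dorsal ephrin ligand Efnb2 3.40-fold and 4.06-fold. The ventral receptors Ephb2 and Ephb3 were at 0.591 and 0.530 of the Aldh1a3 level in the control and at 0.601 and 0.519 in the mutant. Bmp4, a dorsal signal, had 2.04 CPM with Aldh1a1 and 1.22 CPM with Aldh1a3 in the control, a ratio whose interval (0.610 to 4.29) held 1, and 2.11 and 0.251 CPM in the mutant (2.48 to 36.1).

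Cyp26a1 was highest in the cells with neither enzyme, at 168 CPM (159 to 177) in the control and 146 CPM (139 to 154) in the mutant. It was at 92.6 CPM in Aldh1a1 cells and 27.5 CPM in Aldh1a3 cells of the control, 3.36-fold (2.88 to 3.92), and at 88.5 and 39.1 CPM in the mutant, 2.26-fold (2.00 to 2.56). Cells with both enzymes had 43.3 and 31.1 CPM. Of the cells with neither enzyme, 429 control and 569 mutant cells had a Cyp26a1 UMI. They had little Vax2 (12 and 10.0 CPM) and little Tbx5 (0.481 and 3.28 CPM), but Tbx2 at 99.1 and 93.7 CPM, close to the 103 and 93 CPM of the Aldh1a1 cells. Their Efnb2 was intermediate, at 138 and 127 CPM, between 256 and 75.4 CPM in the Aldh1a1 and Aldh1a3 cells of the control. The difference in Tbx5 between the libraries rested on 2 and 17 UMIs. These cells were picked for lacking both enzymes, and over all cells with Cyp26a1 the levels were 2.56 and 3.78 CPM for Tbx5 and 20.6 and 25.8 CPM for Vax2. Cells with none of the 3 genes had similar Tbx5, at 0.495 and 3.45 CPM, more Vax2, at 58.7 and 64.0 CPM, and less Tbx2, at 58.9 and 63.6 CPM. Of the members compared in the same way, Rarb, Crabp1 and Crabp2 varied less between the dorsal and ventral cells, with Rarb 1.55-fold (1.10 to 2.18) and 1.45-fold (1.10 to 1.90) higher with Aldh1a1, Crabp1 1.3-fold (1.19 to 1.43) and 1.15-fold (1.05 to 1.26), and Crabp2 at 0.884 (0.835 to 0.935) and 0.988 (0.940 to 1.04) of its Aldh1a3 level. Dhrs3 was compared in the cells without Cyp26a1 alone, where it was at 3.63 and 1.23 CPM with Aldh1a1 and with Aldh1a3 in the control, from 9 and 12 UMIs, and at 6.06 and 2.76 CPM in the mutant, from 19 and 36 UMIs.

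**Figure D3:**
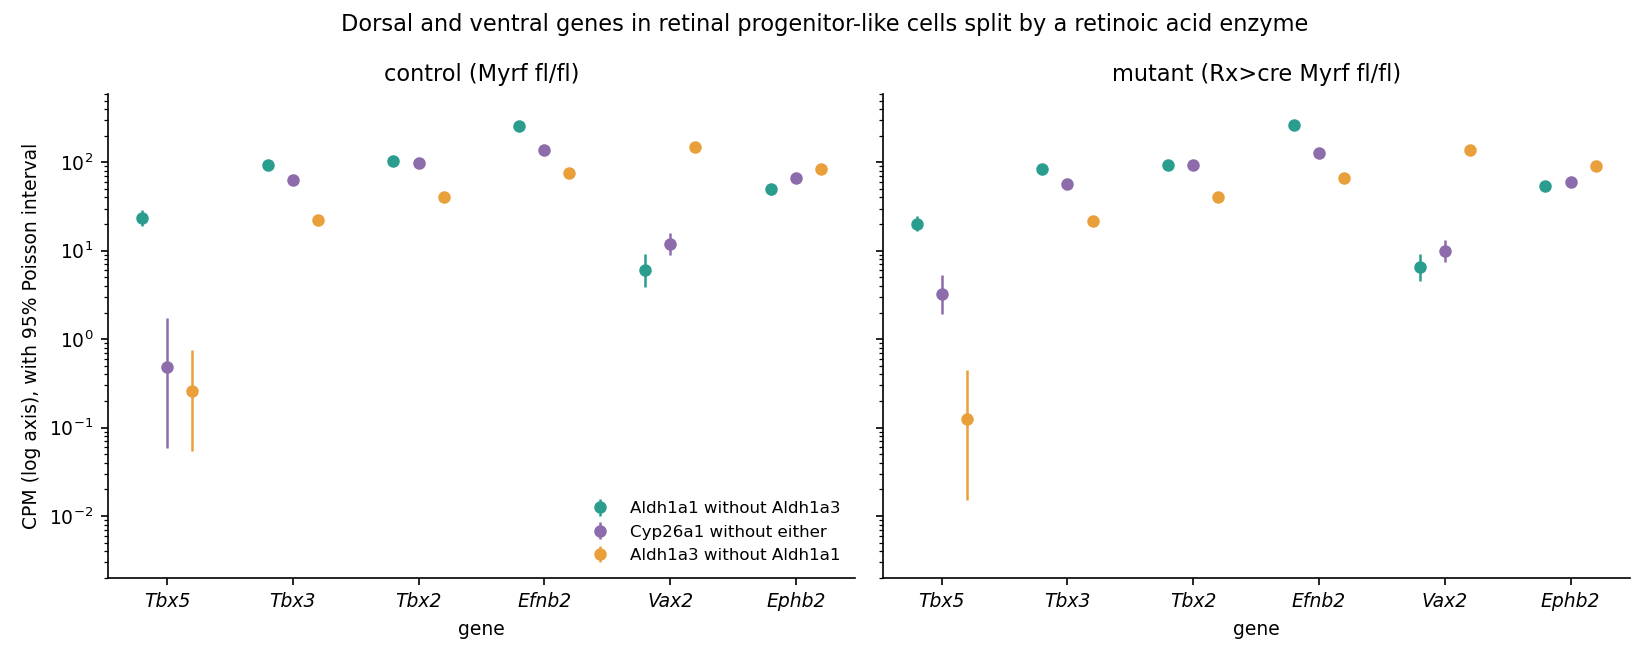
CPM on a log axis of dorsal and ventral genes in retinal progenitor-like cells with Aldh1a1 and not Aldh1a3, Aldh1a3 and not Aldh1a1, or Cyp26a1 and neither enzyme, for the control (left) and mutant (right) library, with exact 95% counting intervals. Tbx5 (23.7 against 0.260 CPM in the control) and Vax2 (6.12 against 149 CPM) separate the enzymes most, and the Cyp26a1 cells are low in both.

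Between the genotypes, 80 pairs of a member and a class had at least 50 UMIs over both libraries, and 59 of them differed by less than 1.5-fold. In 15 pairs the mutant was at least 1.5-fold higher and in 6 at least 1.5-fold lower, where 3.31% and 2.68% of all 144660 gene and class pairs went past the same folds. The interval excluded 1 in 14 of the 15 and in all 6. When cells were thinned to 2000 UMIs, the intervals of the share of cells with a UMI overlapped between the libraries in all 21 pairs, and in 4 of them the share ran the other way. These 4 were Aldh1a1 in RPE-like and in surface epithelium-like cells, Crabp1 in immune-like cells and Cyp26a1 in photoreceptor precursor-like cells. Several of the thinned shares rest on few cells, such as 3 control and 1 mutant RPE-like cells with Aldh1a1. Intervals that wide overlap almost whatever the ratio is, so the overlap does not decide whether a ratio holds. Most of the 21 pairs had few UMIs. Among the 46 member pairs with at least 200 UMIs, 1 was higher (Cyp26a1 in mesenchyme-like cells) and 3 were lower (Aldh1a1 in cluster 13, Crabp1 in neurogenic progenitor-like cells and Crabp2 in surface epithelium-like cells), against 1.11% and 0.648% of all such pairs. The median log2 ratio over the 80 pairs was -0.01, and the class medians over all genes were between -0.06 and 0.02 in every class but the erythroid-like cells, at 0.26.

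In retinal progenitor-like cells 7 members had enough UMIs, and 1 was past the fold higher and 0 lower, where 1.78% and 1.01% of all genes of the class were. Aldh1a1 had a ratio of 0.839 (0.795 to 0.886), Cyp26a1 0.926 (0.875 to 0.980), Crabp1 0.817 (0.781 to 0.854) and Crabp2 0.928 (0.905 to 0.951). These 4 ratios lay below 1 by more than counting error and within 1.5-fold. An upper limit of 2000 UMIs, which removes most barcodes, gave log2 ratios past the fold for 2 of them. Cyp26a1 was then at -1.25 in place of -0.11, and Crabp2 at -0.59 in place of -0.11. The Aldh1a1 difference was not shared by the 4 clusters, with ratios of 0.584 (0.506 to 0.672) in cluster 21 and 0.660 (0.593 to 0.734) in cluster 22, but 0.936 (0.856 to 1.02) in cluster 16 and 1.21 (1.07 to 1.37) in cluster 5. Dhrs3 was the member past the fold, with 41 control and 101 mutant UMIs (1.57 and 2.79 CPM, a ratio of 1.77, 1.22 to 2.62). At 2000 UMIs per cell it was seen in 0.304% and 0.529% of these cells, not above the 0.655% and 0.75% that a count of 0 allows in erythroid-like cells, so by these shares neither library could be told from background. Over all UMIs, erythroid-like cells had 0.131 and 0.151 CPM of Dhrs3 (upper bounds 0.731 and 0.838). In cells with an Xist UMI and no Y-linked UMI its log2 ratio was 0.51 in place of 0.83, no longer past the fold.

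RPE-like cells, in which Myrf was measured, were 365 cells in the control and 198 in the mutant, with medians of 6940 and 3828.5 UMIs. Of 6 members with enough UMIs there, 3 were past the fold higher and 0 lower, where 3.31% and 5.53% of all genes of the class were. Aldh1a3 went from 110 UMIs (29.0 CPM) to 89 UMIs (46.9 CPM), a ratio of 1.62 (1.21 to 2.16). Crabp1 went from 9.48 to 30.1 CPM (3.17, 2.05 to 4.95) and Aldh1a1 from 7.11 to 15.8 CPM (2.22, 1.28 to 3.89). In the mutant 5 of the 198 cells held 70.8% of the Aldh1a3 UMIs, 77.2% of the Crabp1 UMIs and 73.3% of the Aldh1a1 UMIs. Without the 5 richest cells of each library the log2 ratio of Aldh1a3 was -0.40 in place of 0.70, and it was 0.29 with a mitochondrial limit of 5% and 0.14 as a mean over cells, both within the fold. For Crabp1 the log2 ratio was 0.72 as a mean over cells and 3.675 with free RNA subtracted, in place of 1.66. Its size thus depended strongly on the processing, though both values were past the fold. At 2000 UMIs per cell, Aldh1a3 was seen in 5.33% (2.87 to 8.94) of 244 control cells and 7.38% (3.43 to 13.5) of 122 mutant cells, which overlap. Aldh1a1 was seen in 3 control cells (1.23%) and 1 mutant cell (0.82%). Progenitor marker UMIs in RPE-like cells were 724 CPM in control and 966 CPM in mutant cells, with 5 of the 7 markers higher; their part in the result was not tested. The other 3 members stayed within the fold, at 161 and 151 CPM for Crabp2 (0.942, 0.816 to 1.09), 36.6 and 33.2 CPM for Dhrs3, and 19.0 and 26.4 CPM for Rarb.

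**Figure D4:**
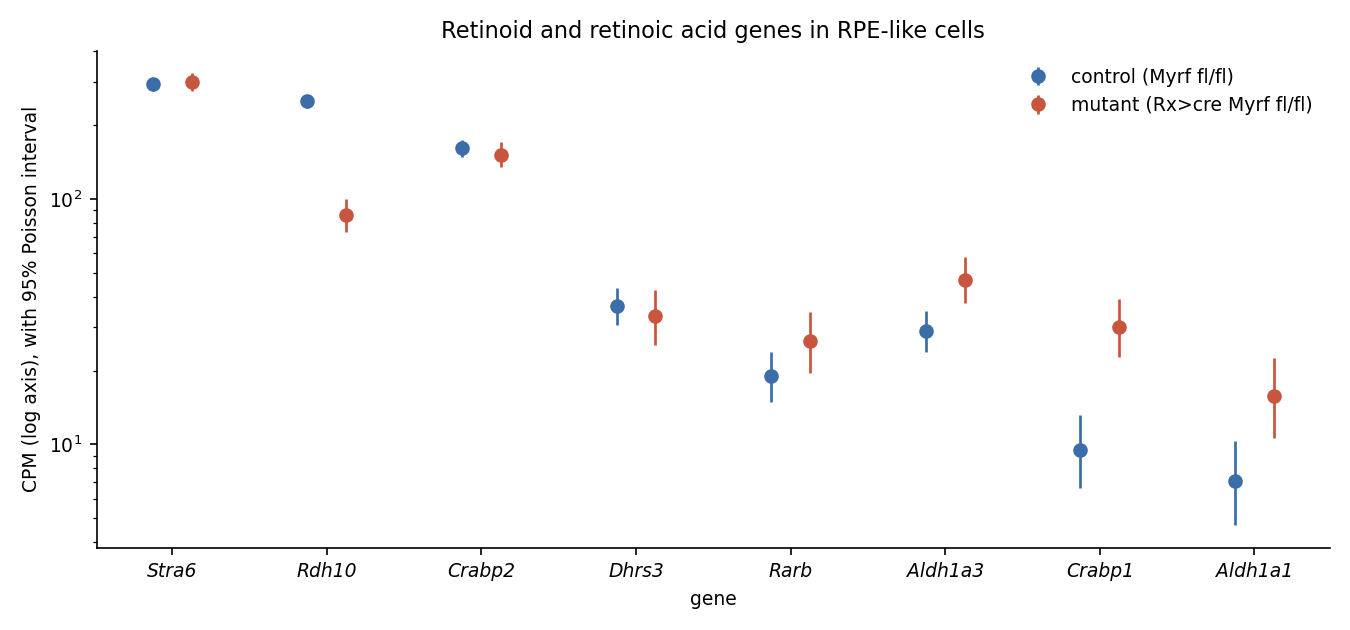
CPM on a log axis of the members and of other retinoid genes in RPE-like cells of the control and the mutant library, with exact 95% counting intervals. Rdh10 (249.5 and 86.0 CPM) is lower in the mutant and Crabp1 (9.48 and 30.1 CPM) higher, while Stra6 and Crabp2 lie at nearly the same level in both.

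In pericyte-like cells 8 members had enough UMIs and 0 were past the fold in either direction, where 3.19% and 1.52% of all genes of the class were. Cyp26a1 was nearest to it, at 32.0 and 46.0 CPM, a ratio of 1.44 (1.22 to 1.70). All 7 progenitor markers were higher in these cells too, with sums of 273 and 379 CPM, and their part in the result was not tested. Rarb was lower by more than counting error in each of its 3 main classes, with ratios of 0.837 (0.770 to 0.908) in pericyte-like cells, 0.766 (0.684 to 0.859) in cluster 3 and 0.756 (0.686 to 0.834) in mesenchyme-like cells, none past the fold. The mesenchyme-like value also carries a change in make-up. Cluster 4, where Rarb was at 2.15 and 4.75 CPM, was 437 of 2073 control and 411 of 1356 mutant cells, and cluster 8, where Rarb was at 71.7 and 65.0 CPM, was 684 and 383 cells. Within the clusters the ratio was 0.907 (0.80 to 1.03) in cluster 8, 0.759 (0.616 to 0.930) in cluster 15, 0.802 (0.592 to 1.08) in cluster 23 and 2.2 (1.17 to 4.35) in cluster 4. Aldh1a2 had a ratio of 1.33 (1.2 to 1.48) in cluster 3, 1.03 (0.923 to 1.14) in pericyte-like cells and 1.05 (0.912 to 1.22) in mesenchyme-like cells.

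In mesenchyme-like cells 2 of 8 members were past the fold higher and 0 lower, where 3.67% and 2.14% of all genes of the class were. Aldh1a1 went from 36 UMIs (1.2 CPM) to 122 UMIs (5.79 CPM), a ratio of 4.81 (3.29 to 7.18), and Cyp26a1 from 118 UMIs (3.95 CPM) to 164 UMIs (7.78 CPM), a ratio of 1.97 (1.55 to 2.52). Both genes are mainly progenitor genes, and all 7 progenitor markers were higher in the mutant as well, with a sum of 194 CPM in control and 348 CPM in mutant cells. Their part in the result was not tested. In erythroid-like cells the same markers had a ratio of 1.88 (1.56 to 2.28). With called doublets kept, the log2 ratio of Aldh1a1 was 0.67 in place of 2.27, still past the fold, and that of Cyp26a1 was 0.40 in place of 0.98, no longer past it. The Aldh1a1 share of mesenchyme-like cells at 2000 UMIs per cell was 0.291% for the control and 0.967% for the mutant, against 0.218% and 0.75% of erythroid-like cells. The control share lies under the 0.655% that a count of 0 allows there and could not be told from background. In cells with an Xist UMI and no Y-linked UMI the Cyp26a1 value was 0.55, also within the fold. Cyp26a1 was found mainly in cluster 8 of the mesenchyme, at 9.74 CPM in control and 20.5 CPM in mutant cells, against 1.3 and 4.29 CPM in cluster 15.

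In retinal ganglion cell-like cells 2 of 5 members were past the fold higher and 0 lower, where 1.77% and 1.77% of all genes of the class were. Rarb went from 15 to 58 UMIs (2.17 and 6.48 CPM, a ratio of 2.99, 1.67 to 5.67) and Aldh1a3 from 27 to 58 UMIs (3.91 and 6.48 CPM, 1.66, 1.03 to 2.72). Of the 7 progenitor markers 6 were higher as well, with sums of 282 and 336 CPM, and their part in the result was not tested. At 2000 UMIs per cell, Rarb was seen in 2 of 411 control cells and 8 of 519 mutant cells, or 0.487% and 1.54%, and Aldh1a3 in 5 and 7 cells, or 1.22% and 1.35%. The Rarb shares stood against 0.218% and 0% of erythroid-like cells. The control Rarb share is not above the 0.655% that a count of 0 allows in erythroid-like cells, so by this share the control level under the ratio could not be told from background. With called doublets kept, the log2 ratio of Rarb was 0.48 in place of 1.58, within the fold. That of Aldh1a3 was 0.58 in place of 0.73 at a Leiden resolution of 2.0, just within it. Crabp1, the main member of the class, had a ratio of 0.759 (0.727 to 0.793), within the fold, and its 2 clusters had 0.965 (0.916 to 1.02) in cluster 26 and 0.519 (0.479 to 0.564) in cluster 18. Without cells over 20000 UMIs its log2 ratio in the class was -0.93 in place of -0.40, past the fold.

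The remaining pairs past the fold lay in 7 classes. Crabp2 in surface epithelium-like cells was lower, at 340 UMIs (232 CPM) in the control and 231 UMIs (122 CPM) in the mutant, a ratio of 0.526 (0.443 to 0.623), with 47.6% and 44.2% of its UMIs in 5 cells. In the same 82 control and 109 mutant cells Aldh1a1 went from 24 to 69 UMIs (a ratio of 2.22, 1.38 to 3.70) and Cyp26a1 from 18 to 38 UMIs (1.63, 0.910 to 3.04, which holds 1), and the progenitor markers were at 183 and 357 CPM; their part in the result was not tested. The log2 ratio of Aldh1a1 was 0.45 in place of 1.15 as a mean over cells, within the fold, and its share at 2000 UMIs per cell was 7.69% (2.88 to 16) in the control and 3.92% (1.08 to 9.74) in the mutant. Crabp1 in neurogenic progenitor-like cells was the best counted of these pairs and also lower, from 439 UMIs (64.0 CPM) to 435 UMIs (42.4 CPM), a ratio of 0.661 (0.578 to 0.757), and no more than 13.9% of its UMIs lay in 5 cells. That value is close to the limit, and under 7 of 11 alternatives it fell within the fold, with log2 ratios from -0.37 at a Leiden resolution of 0.5 to -0.58, in place of -0.60. Cluster 13 had less Aldh1a1 (0.473, 0.384 to 0.580) and more Crabp2 (1.99, 1.37 to 2.94) in the mutant, but the log2 ratio of Aldh1a1 was 1.34 with a mitochondrial limit of 5% and -0.28 without its 5 richest cells, and that of Crabp2 was -0.40 among cells with an Xist UMI and no Y-linked UMI. In photoreceptor precursor-like cells Aldh1a1 had a ratio of 0.499 (0.353 to 0.703) and Cyp26a1 one of 0.437 (0.234 to 0.795), with 67.8% and 75.0% of their control UMIs in 5 cells. Without the 5 richest cells of each library the log2 ratio of Aldh1a1 there was -0.36. With called doublets kept that of Cyp26a1 was -0.48 in place of -1.19, within the fold, and the Cyp26a1 share at 2000 UMIs per cell was 0.974% for the control against 1.36% for the mutant. Muscle-like cells had more Rarb (2.43, 1.65 to 3.62) and Dhrs3 (1.88, 1.36 to 2.61), amacrine and horizontal-like cells more Crabp1 (2.83, 1.92 to 4.31, with thinned shares of 3.4% and 4.52%), and immune-like cells more Aldh1a3 (2.38, 1.49 to 3.93) and less Crabp1 (0.623, 0.411 to 0.941). At 2000 UMIs per cell, Rarb was seen in 1 of 165 control muscle-like cells (0.606%) and 5 of 152 mutant ones (3.29%). That control share is not above the 0.655% that a count of 0 allows in erythroid-like cells, so it could not be told from background. With free RNA subtracted, the log2 ratio of Crabp1 in amacrine and horizontal-like cells was 3.13 in place of 1.5. Crabp1 in immune-like cells turned to a log2 ratio of 0.78 when cells were weighted equally. In immune-like cells the progenitor markers were at 231 and 407 CPM, with 6 of 7 higher in the mutant, and their part in the Aldh1a3 result was not tested.

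**Figure D5:**
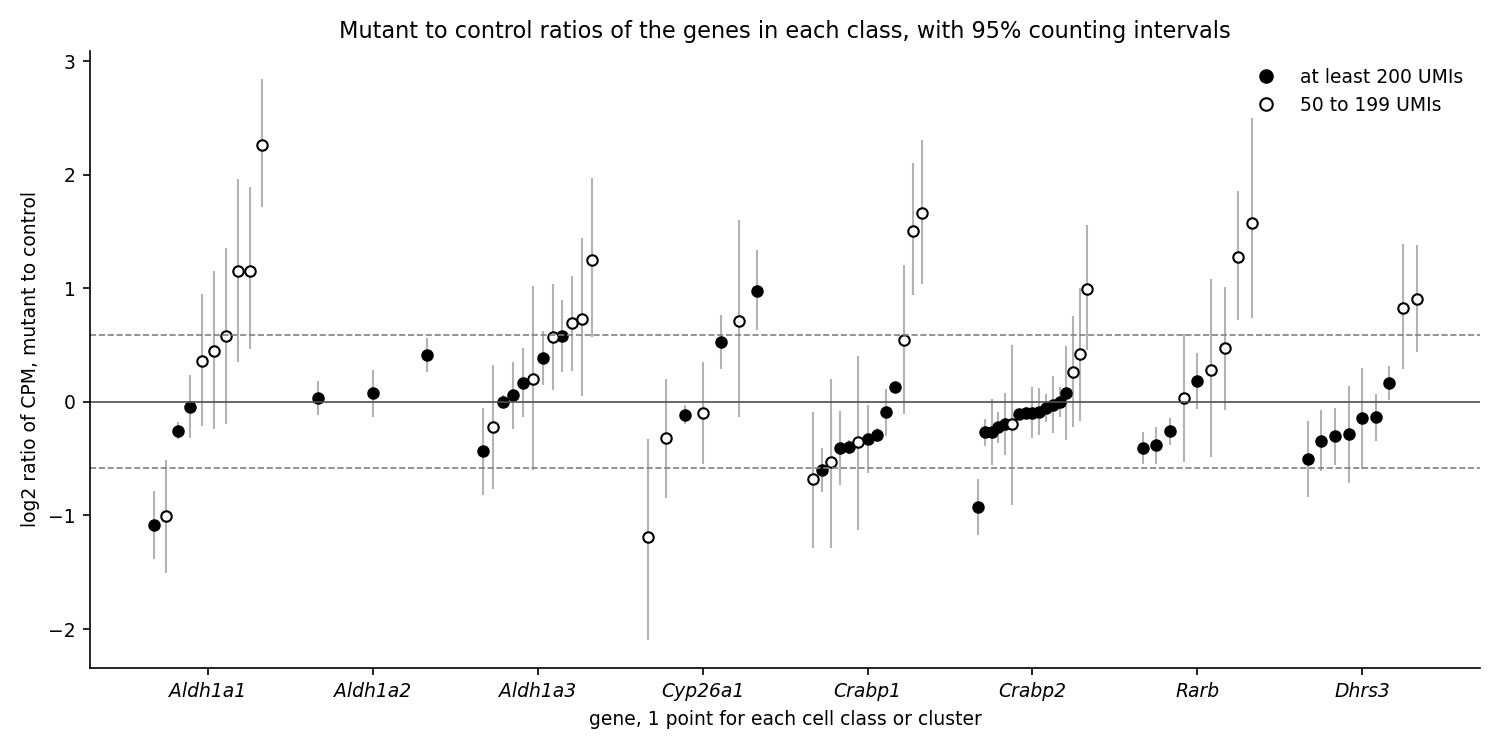
Ratio of the mutant to the control level on a log2 axis for each member in each class with at least 50 UMIs over both libraries, 80 points in all, with exact 95% counting intervals, the 1.5-fold limits as dashed lines, and filled points for pairs with at least 200 UMIs. Of the 46 filled points 4 lie beyond the dashed lines, 1 above and 3 below.

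Other genes of the pathway, 24 in all, were taken from a list of carriers and enzymes, receptors and their partners, and genes known to respond to retinoic acid. They gave 272 pairs with enough UMIs, of which 19 were past the fold higher and 11 lower, where 3.31% and 2.68% of all gene and class pairs were. They gave 175 pairs with at least 200 UMIs, of which 5 were higher and 4 lower, where 1.11% and 0.648% of all such pairs were. The carriers and enzymes had 3 higher and 6 lower of 92 pairs, the receptors and partners 2 and 2 of 99, and the response genes 14 and 3 of 81. Of the 14, 3 lay in RPE-like cells, 2 in cluster 3 and 2 in retinal progenitor-like cells, where 3.31%, 3.37% and 1.78% of all genes were higher. No other class held more than 1. Not all of the 14 are named here, and the response genes were not counted apart at 200 UMIs. In RPE-like cells Rdh10, the dehydrogenase that makes the retinaldehyde used by the Aldh1a enzymes, went from 947 UMIs (249.5 CPM) to 163 UMIs (86.0 CPM), a ratio of 0.345 (0.290 to 0.407). Rbp4, the carrier of retinol in blood, had a ratio of 0.611 (0.408 to 0.894) there, from 118 and 36 UMIs. Stra6, the membrane receptor for that carrier, was at 293 and 299 CPM (1.02, 0.921 to 1.13).

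Among receptors, Rarg in pericyte-like cells went from 33.3 to 21.8 CPM (0.656, 0.533 to 0.803). Among response genes, Dkk2 in mesenchyme-like cells, where it was well counted, was at 931 and 1000 CPM, within the fold. Nr2f1 in cluster 3 went from 195 to 378 CPM (1.94, 1.80 to 2.09) and Meis1 there from 9.08 to 24.8 CPM (2.73, 1.95 to 3.89). Retinal progenitor-like cells held 52.9% of the Nr2f1 and 50.3% of the Meis1 UMIs of the control, and all 7 progenitor markers were higher in cluster 3 of the mutant, with sums of 418 and 570 CPM; their part in the result was not tested. Dkk2 was past the fold in 6 other classes, higher in 4 and lower in 2, at no more than 65.1 CPM in either library. In RPE-like cells it was at 10.5 and 42.7 CPM, where 5 mutant cells held 92.6% of its UMIs. In immune-like cells it went from 131 UMIs (65.1 CPM) to 16 UMIs (5.82 CPM), a ratio of 0.0893 (0.0496 to 0.151), and 5 control cells held 93.9% of its UMIs.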

How the data were processed

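UMI tables of e15.5 eye cups were analysed as 2 libraries, 1 per genotype, grouped by the genotype in the labels. The authors deposited unnormalized UMI counts per gene and cell, aligned to mm10. The submitters' processing notes name Cell Ranger 7.1.0 and Seurat 4.1.1, whereas the matrix headers name version 3.1.0. Other ages in the study were not used here.

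Cells with fewer than 200 genes or over 15% mitochondrial UMIs were left out. Doublets were called with Scrublet in scanpy 1.11.5. Its automatic threshold called 0 in the mutant, so the control threshold (0.215) was applied to both libraries and removed 334 (2.80%) and 349 (2.68%) barcodes. These rates are low for libraries of this many barcodes, so doublets may remain. An upper limit of 2000 UMIs, as the methods state it, would leave out 79.1% and 80.6% of barcodes and was only an alternative. Counts were scaled per cell, and both libraries were clustered together on 1887 of the 2000 most variable genes (30 components, 15 neighbours, Leiden resolution 1.0, leidenalg 0.10.2). The 9 genes, the other pathway genes, the dorsal and ventral genes and the naming markers were kept out of the features. Of 35 clusters, those with a clear marker score and at least 3 markers seen were named. The score limits of 0.75, and 0.25 over the next class, were set after the data were seen, and the names can differ from the study's own. Cells in no class, 22.7% of control and 22.1% of mutant cells, had medians of 1188 and 1202 UMIs and held 5.24% and 5.47% of UMIs.

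UMIs were summed per class and library and divided by the class total (CPM). Sums carry exact Poisson intervals, shares exact Clopper-Pearson intervals and ratios exact conditional binomial intervals, all at 95%. They cover counting error only and assume independent UMIs, so the share held by the 5 richest cells is given where it is high. A gene at 0 in 1 library was set to 3 counts for a ratio. A difference of 1.5-fold with at least 50 UMIs over both libraries was the rule of size. Python 3.11.15 with scipy 1.17.1 was used, and the ratio, its interval and the rule of size were tested on simulated counts.

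The members, the lists of other genes and the tests were chosen with earlier results of these data known. Genes named are the 9 members, for each member with at least 50 control UMIs the 3 genes with the most similar control profile, and the genes of the listed pathway, dorsal and ventral sets, some of which are not reported here. The alternatives changed the mitochondrial limit, doublets, UMI limits, Leiden resolution, scaling, embryo sex, free RNA, the richest cells, cell weighting, thinning, the UMI minimum and the pseudocount of 1.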

Additional observations from a re-analysis of the deposited data

How the results depend on the processing

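Of the single values recomputed under an alternative, 275 moved by less than counting error, 39 moved further and 4 reversed. Of the summary counts and co-detection ratios, 46 values stayed close and 11 moved. The reversed values were log2 ratios of Aldh1a1 in cluster 13, at 1.34 with at most 5% mitochondrial UMIs, of Crabp2 in cluster 13, at -0.40 in cells with an Xist UMI and no Y-linked UMI, of Aldh1a3 in RPE-like cells, at -0.40 without the 5 cells richest in it, and of Crabp1 in immune-like cells, at 0.78 as a mean over cells. The cause was not tested. The number of member and class pairs past the fold higher in the mutant, 15 of 80, was 9 of 63 without cells over 20000 UMIs and 0 of 2 without cells over 2000 UMIs, where few pairs were left. The number lower, 6, was 2 of 2 without cells over 2000 UMIs, 12 of 68 in cells with an Xist UMI and no Y-linked UMI, and 1 of 66 without the richest cells. Of the other pathway pairs, 5 were higher and 4 lower with a minimum of 200 UMIs, and 19 were lower with a minimum of 20. With a pseudocount of 10, 13 of the 24 most similar genes were named again. Within single progenitor clusters, an alternative added after the data were seen, co-detection of Aldh1a1 and Aldh1a3 over the product of their shares was 0.367 (0.0445 to 1.32) in cluster 5 of the control and 0.336 (0.0407 to 1.21) in cluster 21 of the mutant, each from 2 cells with both. The other 6 ratios were between 0.513 and 0.663, and the interval excluded 1 only in cluster 22 of the mutant (0.532, 0.266 to 0.948). No paired analysis was possible because there was 1 library per genotype. That number, the unequal sex of the pools and the free RNA of progenitors limit every comparison of genotypes, and Cyp26c1 was too rare to compare at this depth.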
